A study of Mus musculus with 18 samples.

Results

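The genes described here are 10 components of the NF-κB system in mouse liver: the subunit genes Nfkb1, Nfkb2, Rela and Relb, the inhibitor genes Nfkbia, Nfkbib and Nfkbie, the nuclear IκB genes Nfkbiz and Bcl3, and Tnfaip3, a feedback inhibitor of the pathway. They were chosen by symbol, and all 10 are listed in each of the 3 gene count tables, out of 18108 genes for Pico, 18051 for V4, 19424 for TruSeq and 21018 in at least 1 table. The livers came from male C57/B6J mice, 12 weeks old, collected 4 hours after an intraperitoneal injection of IL-1β at 20 μg/kg (mice ILB_9579, ILB_9582 and ILB_9583) or of saline (mice UNT_9574, UNT_9575 and UNT_9576). IL-1β is an inflammatory cytokine, and saline is its vehicle control. RNA of each mouse entered all 3 kits, which gave 18 libraries, 1 per mouse and kit. The TruSeq kit selects poly(A) RNA, keeps the strand and received 200 ng. Pico keeps the strand of total RNA and received 1.7 to 2.6 ng, and V4 selects poly(A) RNA without strand and received 0.8 to 1.3 ng. Reads were 150 bp long for Pico and V4 and 125 bp for TruSeq, and kit, input and sequencing run cannot be told apart. The response to IL-1β was therefore compared within each kit.

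NF-κB proteins are dimers of subunits that share a DNA-binding Rel homology region. In resting cells, classical inhibitors of the IκB family hold the dimers in the cytoplasm. IL-1 receptor signalling activates the IκB kinase complex, which marks the inhibitors for degradation and lets the dimers enter the nucleus, where they switch on inflammatory genes and, in the liver, acute-phase genes. Several subunit and inhibitor genes are themselves targets of NF-κB, so that the pathway induces its own inhibitors.

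The counted reads of a library summed to 12348864 to 12858237 in TruSeq, 12013453 to 12352473 in V4 and 4024632 to 4134070 in Pico. No pair of libraries of the same kit and treatment agreed within sampling noise (chi-square over its degrees of freedom at least 7.63), so none was treated as a library deposited more than once. All 8 hepatocyte markers had counts in each kit, and their summed level was lower after IL-1β, at 70988 to 77239 CPM (counts scaled to the same library total) against 96148 to 113970 in TruSeq. The single markers went both ways, with 2 called higher and 4 lower in TruSeq, 2 and 6 in Pico, and 1 and 3 in V4. Neutrophil markers were higher, at 45.9 to 91.0 CPM against 3.75 to 6.80 in TruSeq, 41.0 to 51.2 against 0.971 to 6.05 in Pico, and 43.4 to 80.0 against 3.40 to 6.41 in V4. Of the 9 neutrophil markers 6 rose in Pico, 4 in V4 and 6 in TruSeq, while Mpo is listed in no table, Elane in V4 and TruSeq, and Ly6g in TruSeq alone. Summed Kupffer cell and macrophage markers were lower in each kit, at 67.3 to 97.7 CPM against 136 to 229 in TruSeq. So were the sums for endothelial and stellate cells, each with no overlap between the treatments. The stellate cell sums in Pico lay close, at 205 to 290 CPM against 306 to 379. All marker sums are scaled by library totals alone, and whether they stay apart with other scaling was not tested. Of the 8 Kupffer cell and macrophage markers 1 was called higher and 5 lower in TruSeq, against 0 and 4 in Pico and 0 and 2 in V4. Of the 6 endothelial markers 1 was higher and 4 lower in TruSeq, 2 and 3 in Pico, and 0 and 2 in V4, and of the 6 stellate cell markers 3, 2 and 1 were lower and none higher. The T and B cell sum reached at most 5.94 CPM in any library. In TruSeq it was 0.806 to 1.94 CPM after IL-1β and 3.27 to 5.06 after saline, with 3 of 7 markers called lower and 0 higher. It overlapped in Pico (0 to 5.94 against 2.66 to 5.63) and V4 (0.332 to 2.90 against 2.48 to 4.41), with no marker called. These are bulk libraries, in which a change in the number of cells of a type cannot be told apart from a change in RNA per cell, and the part of these shifts in the results below was not tested.

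IL-1β raised 7 of the 10 genes in TruSeq, 6 in Pico and 4 in V4, and lowered none of them, by limma-voom at a Benjamini-Hochberg adjusted p of at most 0.05 over all genes of a table. Over all genes tested, 12.3% were called higher in TruSeq, 6.78% in Pico and 3.6% in V4, and 21.8%, 10.8% and 7.41% were called lower. These shares include genes with few counts. A fit limited to genes with at least 10 counts in 3 libraries kept all 10 members and called 7, 6 and 6 of them higher. It called 2363 of 12755 genes higher in TruSeq, 1299 of 11318 in Pico and 696 of 11821 in V4. The 4 genes called higher in all 3 kits were Nfkb2, Rela, Nfkbib and Bcl3, where 3.05% of the 16184 genes listed in every table were. Nfkbiz was called in Pico and TruSeq, Nfkb1 in Pico alone, Relb and Nfkbia in TruSeq alone, and Nfkbie and Tnfaip3 in no kit. The median log2 fold change of the 10 genes was 1.09 in TruSeq, 1.20 in Pico and 1.33 in V4, against -0.17, -0.12 and -0.22 over all genes. Every IL-1β library lay above every saline library for 7 of the genes in TruSeq, 7 in Pico and 6 in V4, against 17.1%, 12.6% and 9.09% of all genes. Scaling with TMM factors raised the median over all genes by 0.16, 0.13 and 0.17 and moved the share of calls that were higher from 36.0% to 50.9% in TruSeq, from 38.6% to 52.9% in Pico and from 32.7% to 49.7% in V4. The called members were higher with either scaling.

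**Figure D1:**
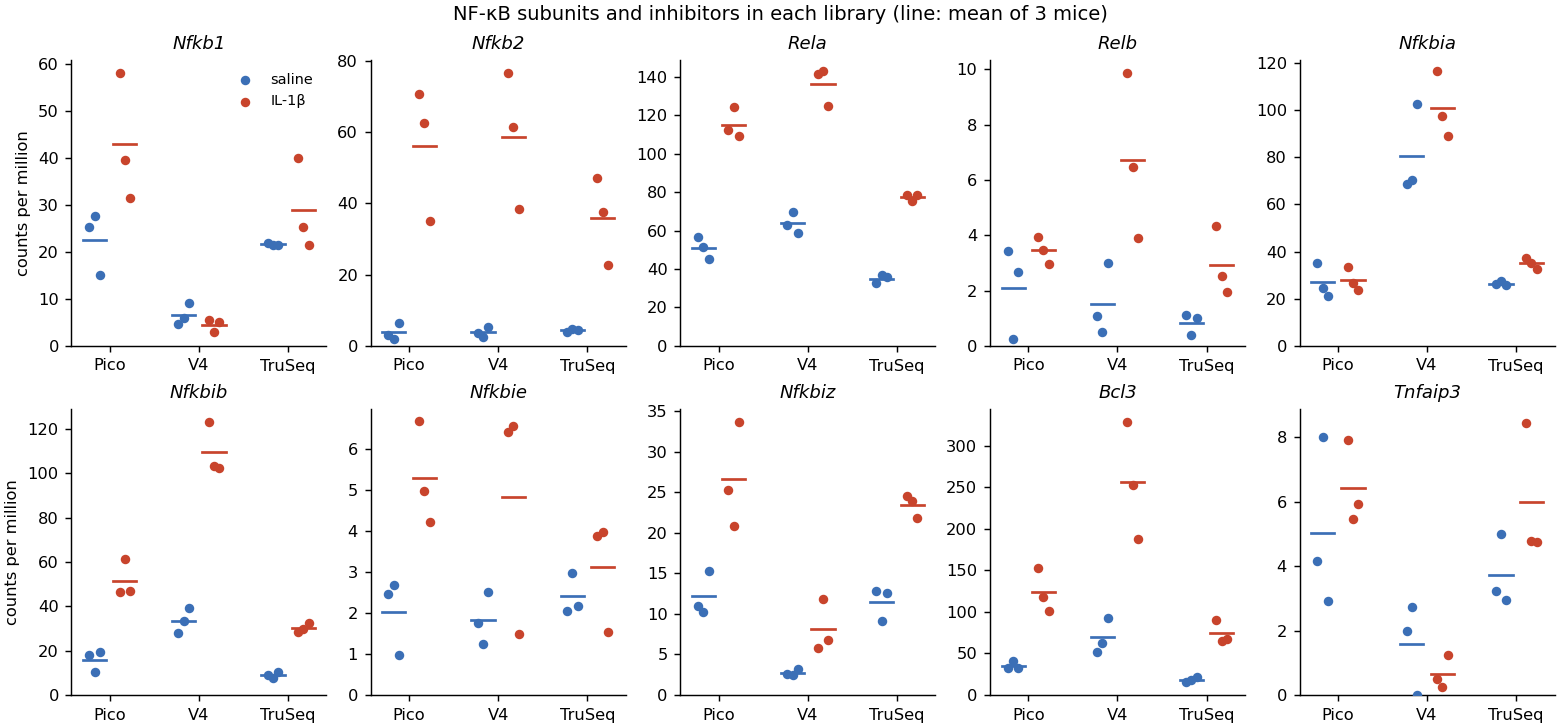
Level of each of the 10 genes in every library, in CPM on a linear axis from 0, by kit; blue points are saline mice, red points IL-1β mice, and lines the mean of 3 mice. The treatments separate in all 3 kits for Nfkb2, Rela, Nfkbib, Nfkbiz and Bcl3.

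Nfkb2 (ENSMUSG00000025225, chr19:46379227-46386580 in mm9, plus strand), which encodes a precursor that holds RelB in the cytoplasm until it is processed to a DNA-binding subunit, had the largest log2 fold change of the 10 genes in each kit. In TruSeq it had 587, 465 and 281 counts in IL-1β mice ILB_9579, ILB_9582 and ILB_9583 and 48, 61 and 57 counts in saline mice UNT_9574, UNT_9575 and UNT_9576. In V4 the counts were 931, 741 and 462 against 42, 29 and 67, and in Pico 286, 252 and 142 against 12, 8 and 27. No IL-1β library came near a saline library in any kit. Nfkb2 rose by a log2 fold change of 2.98 ± 0.32 (SE, n = 3 against 3 mice) in TruSeq (limma-voom, adjusted p = 0.00012), by 3.95 ± 0.54 in Pico, adjusted p = 7.09e-05, and by 3.96 ± 0.48 in V4, adjusted p = 0.000608.

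The sequence before its first annotated start holds 3 matches to the κB decamer, the DNA element that NF-κB dimers bind. It is shown because Nfkb2 moved most. Promoter windows of 250 bases before to 50 bases after a start came from RefSeq (GRCm38.p6), which had 10 windows for 7 of the genes and none for Nfkb1, Relb and Nfkbiz. A match in either orientation was found for 5 of these 7 genes, against 9.55% of the 27025 genes in the table, and a match describes letters, not a bound site. In this window (chr19:46304487-46304736, plus strand) capitals mark the matches, of which those at positions -39 and -38 overlap and share 1 run of capitals and the last begins at -11.
Nfkb2: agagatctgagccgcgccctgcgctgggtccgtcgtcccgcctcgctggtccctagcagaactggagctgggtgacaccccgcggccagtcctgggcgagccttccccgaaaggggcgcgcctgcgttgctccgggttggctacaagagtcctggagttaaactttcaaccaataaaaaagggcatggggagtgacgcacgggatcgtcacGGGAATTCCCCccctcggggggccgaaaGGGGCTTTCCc

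Nfkb1 (ENSMUSG00000028163, chr3:135247619-135354511 in mm9, minus strand) encodes the other precursor, which is processed to the usual partner of RelA. It had 497, 313 and 267 counts in the IL-1β mice and 276, 275 and 277 in the saline mice in TruSeq. Pico gave 235, 159 and 127 against 103, 114 and 62, and V4 gave 66, 35 and 60 against 55, 71 and 112. The treatments separated in Pico alone, and in TruSeq the lowest IL-1β mouse lay at the level of the saline mice. Nfkb1 rose in Pico by 0.93 ± 0.27 on the log2 scale, adjusted p = 0.0244 from limma-voom, and that call was lost when any mouse other than ILB_9583 was left out, with adjusted p values of up to 0.165. The log2 fold change was 0.37 ± 0.20 in TruSeq, adjusted p = 0.199, and -0.54 ± 0.43 in V4, adjusted p = 0.501, both from limma-voom. In TruSeq edgeR and DESeq2 called it higher, with adjusted p values of 0.0391 and 0.0232. The ratio of Nfkb2 to Nfkb1 per kb of exon was 0.253 to 0.323 in the saline livers and 1.53 to 2.17 in the IL-1β livers in TruSeq. It was 0.102 to 0.635 against 1.63 to 2.31 in Pico, and 0.595 to 1.11 against 11.2 to 30.9 in V4. In V4 saline mouse UNT_9574 had slightly more Nfkb2 than Nfkb1 per kb of exon, on 42 and 55 counts. With the length of the longest transcript Nfkb2 was the lower in that mouse, at 1.09 against 1.11 CPM per kb.

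Rela (ENSMUSG00000024927, chr19:5637483-5648130 in mm9, plus strand), the subunit with the activation domain of the classical dimer, had log2 fold changes just above 1 in all 3 kits. TruSeq gave 975, 932 and 973 counts in the IL-1β mice and 413, 472 and 458 in the saline mice. The counts were 1725, 1728 and 1504 against 759, 841 and 725 in V4, and 454, 500 and 441 against 231, 212 and 188 in Pico. In every kit the treatments were far apart relative to the spread among mice. Rela rose by a log2 fold change of 1.14 ± 0.10 in TruSeq, 1.17 ± 0.15 in Pico and 1.10 ± 0.16 in V4, with limma-voom adjusted p values of 3.04e-05, 3.22e-05 and 0.00196. Its RefSeq promoter window held no match to the κB decamer.

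Relb (ENSMUSG00000002983, chr7:20191566-20214787 in mm9, minus strand), the subunit of the alternative pathway that pairs with the Nfkb2 product, was the gene with the lowest level per length in TruSeq. It had 54, 31 and 24 counts against 14, 5 and 13 in TruSeq, 120, 78 and 47 against 13, 6 and 37 in V4, and 16, 14 and 12 against 14, 1 and 11 in Pico. The treatments did not overlap in TruSeq and V4 and overlapped in Pico. Relb rose in TruSeq by 1.81 ± 0.46 on the log2 scale, adjusted p = 0.0133 from limma-voom, a call lost without saline mouse UNT_9575 (adjusted p = 0.0675) or UNT_9576 (0.0530). In V4 the log2 fold change was 2.37 ± 0.70, adjusted p = 0.0531 from limma-voom, and edgeR and DESeq2 called it, with 0.0130 and 0.00419. In Pico it was 1.22 ± 0.74 (adjusted p = 0.305 from limma-voom), on at most 16 counts a library.

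Among the 3 classical inhibitors Nfkbib had the largest log2 fold change in each kit, while Nfkbia, the most abundant of them after saline, had values from 0.06 to 0.41. Nfkbia (ENSMUSG00000021025, chr12:56590398-56593634 in mm9, minus strand) encodes IκBα, the best known negative feedback inhibitor of RelA dimers. In TruSeq it had 464, 434 and 405 counts after IL-1β and 332, 350 and 330 after saline. The counts overlapped in the other kits, at 1417, 1174 and 1072 against 826, 848 and 1266 in V4 and at 135, 107 and 95 against 143, 101 and 88 in Pico. Nfkbia rose in TruSeq by 0.41 ± 0.10 on the log2 scale, adjusted p = 0.0137 from limma-voom. In V4 it had a log2 fold change of 0.34 ± 0.20, adjusted p = 0.340, and in Pico of 0.06 ± 0.23, adjusted p = 0.880, with a 95% interval in Pico from -0.43 to 0.56 (limma-voom). The TruSeq call was lost in 1 fit of all 18 libraries, adjusted p = 0.118. The bases before its start (chr12:55492648-55492897 in GRCm38.p6, minus strand) are shown because a gene with a small response here also holds a κB match, at -29, in capitals.
Nfkbia: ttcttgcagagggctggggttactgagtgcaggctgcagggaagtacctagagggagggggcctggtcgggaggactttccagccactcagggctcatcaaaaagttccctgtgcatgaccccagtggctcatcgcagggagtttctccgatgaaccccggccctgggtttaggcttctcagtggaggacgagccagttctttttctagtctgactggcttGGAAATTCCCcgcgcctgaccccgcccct

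Nfkbib (ENSMUSG00000030595, chr7:29543270-29552531 in mm9, minus strand), which encodes IκBβ, rose more than 3-fold in each kit. It had 350, 370 and 402 counts against 111, 100 and 135 in TruSeq, 1499, 1248 and 1233 against 336, 401 and 484 in V4, and 188, 247 and 189 against 73, 42 and 81 in Pico. No library of one treatment reached the range of the other. Nfkbib rose by 1.74 ± 0.14 on the log2 scale in TruSeq, 1.73 ± 0.25 in Pico and 1.72 ± 0.19 in V4, with limma-voom adjusted p values of 2.42e-05, 0.000132 and 0.000388. Its promoter window held no κB match. The annotation places 42 of its exon bases (1.94%) over exons of Sirt2 on the opposite strand, whose reads the unstranded V4 counts cannot separate.

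Nfkbie (ENSMUSG00000023947, chr17:45692665-45700118 in mm9, plus strand) encodes IκBε, a slower inhibitor of the same family, and had low counts. It had 48, 49 and 19 counts against 26, 38 and 28 in TruSeq, 78, 79 and 18 against 21, 15 and 31 in V4, and 27, 20 and 17 against 10, 11 and 4 in Pico. IL-1β mouse ILB_9583 was the lowest of the IL-1β mice in each kit and fell within or below the saline range in TruSeq and V4. The log2 fold changes were 0.27 ± 0.37 in TruSeq (adjusted p = 0.599), 1.16 ± 0.71 in V4 (0.361) and 1.42 ± 0.56 in Pico (0.0961) by limma-voom, none of them called. Its upstream bases (chr17:45555450-45555699 in GRCm38.p6, plus strand) are given as those of a gene with a κB match, at -106, in capitals, and no call.
Nfkbie: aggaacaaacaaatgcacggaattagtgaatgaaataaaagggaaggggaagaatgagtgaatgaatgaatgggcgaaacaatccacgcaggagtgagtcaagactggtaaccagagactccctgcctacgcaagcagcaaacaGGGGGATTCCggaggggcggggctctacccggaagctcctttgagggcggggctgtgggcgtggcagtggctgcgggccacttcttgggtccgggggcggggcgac

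The make-up of the inhibitor transcripts was also compared. Of the summed level per kb of Nfkbia, Nfkbib and Nfkbie, Nfkbia held 73.9% to 78.2% after saline and 57.1% to 61.9% after IL-1β in TruSeq. The share was 73.8% to 77.3% against 54.1% to 55.4% in V4 and 58.9% to 72.8% against 35.7% to 46.7% in Pico. Nfkbib took up most of the difference, with 16.2% to 22.0% after saline and 33.9% to 41.2% after IL-1β in TruSeq. The ratio of Nfkbia to Rela per kb was 1.24 to 1.38 after saline and 0.717 to 0.820 after IL-1β in TruSeq, 1.74 to 3.01 against 1.17 to 1.41 in V4, and 0.806 to 1.07 against 0.369 to 0.512 in Pico. The treatments did not overlap for the share of Nfkbia or for its ratio to Rela in any kit. The ratio of Nfkbib to Rela lay the other way, at 0.265 to 0.369 after saline and 0.450 to 0.517 after IL-1β in TruSeq, 0.554 to 0.836 against 0.904 to 1.09 in V4, and 0.248 to 0.540 against 0.519 to 0.619 in Pico, where the treatments overlapped. That of Nfkbie to Rela was 0.0686 to 0.0903 against 0.0219 to 0.0590 in TruSeq and overlapped in Pico and V4. The shares and ratios are descriptions and were not tested.

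Bcl3 and Nfkbiz encode atypical IκB proteins that act in the nucleus as partners of NF-κB dimers on DNA. Bcl3 (ENSMUSG00000053175, chr7:20393811-20408119 in mm9, minus strand) had 1122, 797 and 835 counts after IL-1β and 197, 230 and 281 after saline in TruSeq. It had 3995, 3049 and 2266 against 626, 761 and 1142 in V4, and 618, 475 and 408 against 132, 170 and 132 in Pico. The lowest IL-1β library was above the highest saline library in each kit, and Bcl3 had the highest count of the 10 genes after IL-1β in V4. It rose by 2.0 ± 0.17 on the log2 scale in TruSeq, 1.80 ± 0.19 in Pico and 1.89 ± 0.25 in V4, with limma-voom adjusted p values of 3.04e-05, 5.98e-06 and 0.00113. Exons of Gm16175 on the opposite strand cover 161 of its exon bases (6.48%), which matters for the V4 counts alone. Its window holds a κB match that begins at position 2 after the start, shown in capitals with 10 bases on each side (chr7:19822734-19822763 in GRCm38.p6, minus strand), since Bcl3 rose in all 3 kits.
Bcl3: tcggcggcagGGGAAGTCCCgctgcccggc

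Nfkbiz (ENSMUSG00000035356, chr16:55811488-55839012 in mm9, minus strand) encodes IκBζ, a coactivator that IL-1 signalling is known to induce. It had 304, 295 and 270 counts against 162, 117 and 162 in TruSeq, 70, 143 and 82 against 31, 29 and 39 in V4, and 102, 84 and 136 against 45, 42 and 63 in Pico. The treatments did not overlap in any kit. Nfkbiz rose by 1.03 ± 0.15 on the log2 scale in TruSeq, adjusted p = 0.000644 from limma-voom, and by 1.12 ± 0.28 in Pico, adjusted p = 0.00956. In V4 the log2 fold change was 1.51 ± 0.46 (limma-voom, adjusted p = 0.0606), and edgeR and DESeq2 gave 0.0114 and 0.00199. The Pico call was lost without IL-1β mouse ILB_9583 (adjusted p = 0.0594) or saline mouse UNT_9574 (0.0650) or UNT_9575 (0.0522).

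Tnfaip3 (ENSMUSG00000019850, chr10:18720716-18735463 in mm9, minus strand) encodes a ubiquitin-editing enzyme that shuts off signalling upstream of the IκB kinases. Its counts after IL-1β and saline were 105, 59 and 59 against 41, 64 and 38 in TruSeq and 32, 22 and 24 against 17, 33 and 12 in Pico. In V4 it had 6, 3 and 15 counts after IL-1β and 24, 33 and 0 after saline. The treatments overlapped in each kit, and V4 had few reads for this gene, the longest of the 10 by exon bases. The log2 fold change was 0.66 ± 0.29 in TruSeq (adjusted p = 0.109), 0.46 ± 0.45 in Pico (0.562) and -0.05 ± 1.46 in V4 (0.994) by limma-voom. In TruSeq edgeR and DESeq2 called it higher, with adjusted p values of 0.0371 and 0.0285. The V4 value turned on saline mouse UNT_9576, without which it was -2.03, and the 95% interval with all mice ran from -3.27 to 3.16. The bases before its first start (chr10:19015411-19015660 in GRCm38.p6, minus strand) hold matches at -125 and -12, in capitals, and are shown beside the absence of a limma-voom call.
Tnfaip3: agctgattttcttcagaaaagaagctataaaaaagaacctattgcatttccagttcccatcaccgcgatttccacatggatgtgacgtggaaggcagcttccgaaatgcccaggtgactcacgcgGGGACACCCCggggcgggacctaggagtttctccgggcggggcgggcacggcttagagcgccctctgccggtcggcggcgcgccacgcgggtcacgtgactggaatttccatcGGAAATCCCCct

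**Figure D2:**
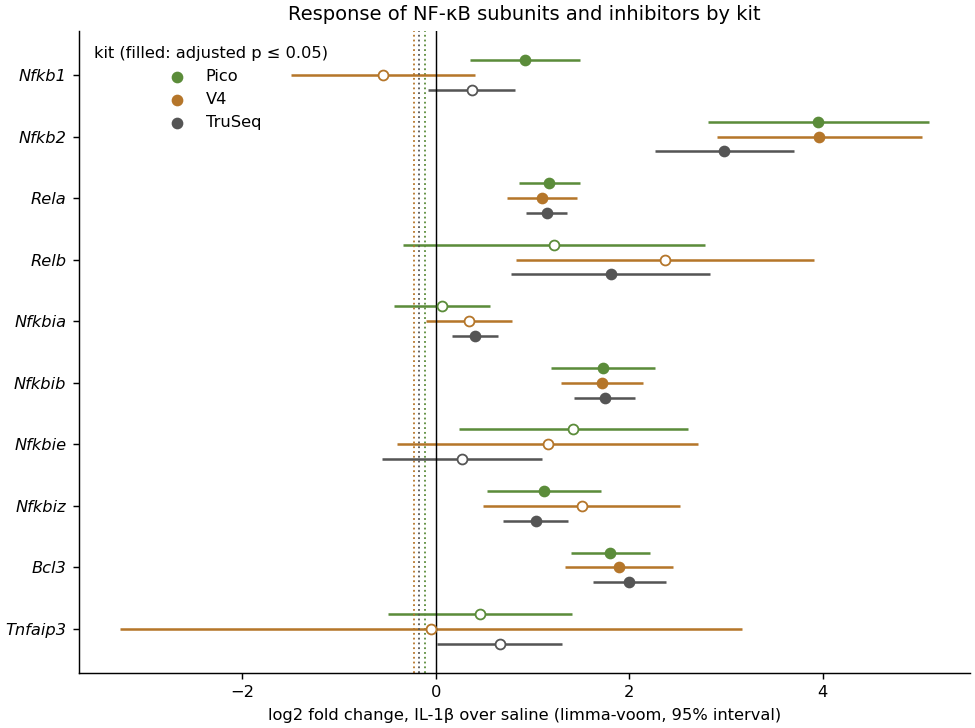
Log2 fold change of IL-1β over saline for each gene and kit by limma-voom; bars are 95% intervals, filled points have an adjusted p of at most 0.05, and dotted lines mark the median over all genes of the kit. Nfkb2 lies farthest to the right in each kit, and the widest interval is that of Tnfaip3 in V4, from -3.27 to 3.16.

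Levels of different genes were compared per kb of exon, in CPM per kb, in the TruSeq libraries. After saline the order was Nfkbia (16.8 ± 0.543, SD, n = 3 mice), Rela (12.9 ± 0.802), Bcl3 (7.43 ± 1.28), Nfkb1 (4.51 ± 0.036), Nfkbib (4.16 ± 0.628), Nfkbiz (2.29 ± 0.410), Nfkb2 (1.32 ± 0.150), Nfkbie (0.991 ± 0.205), Tnfaip3 (0.516 ± 0.153) and Relb (0.215 ± 0.10). The ranges over mice overlapped between Nfkb1 and Nfkbib and between Nfkb2 and Nfkbie, and every other neighbouring pair was apart. After IL-1β the order was Bcl3 (29.8 ± 5.69), Rela (28.5 ± 0.634), Nfkbia (22.2 ± 1.49), Nfkbib (13.9 ± 0.979), Nfkb2 (10.9 ± 3.77), Nfkb1 (6.04 ± 2.04), Nfkbiz (4.66 ± 0.284), Nfkbie (1.29 ± 0.569), Tnfaip3 (0.830 ± 0.294) and Relb (0.753 ± 0.324). Here only Rela and Nfkbia, Nfkbia and Nfkbib, and Nfkbiz and Nfkbie were neighbours with separate ranges. In these TruSeq libraries Nfkb2 went from a level below that of Nfkb1 in every saline mouse to one above the mean of Nfkb1 in every IL-1β mouse.

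**Figure D3:**
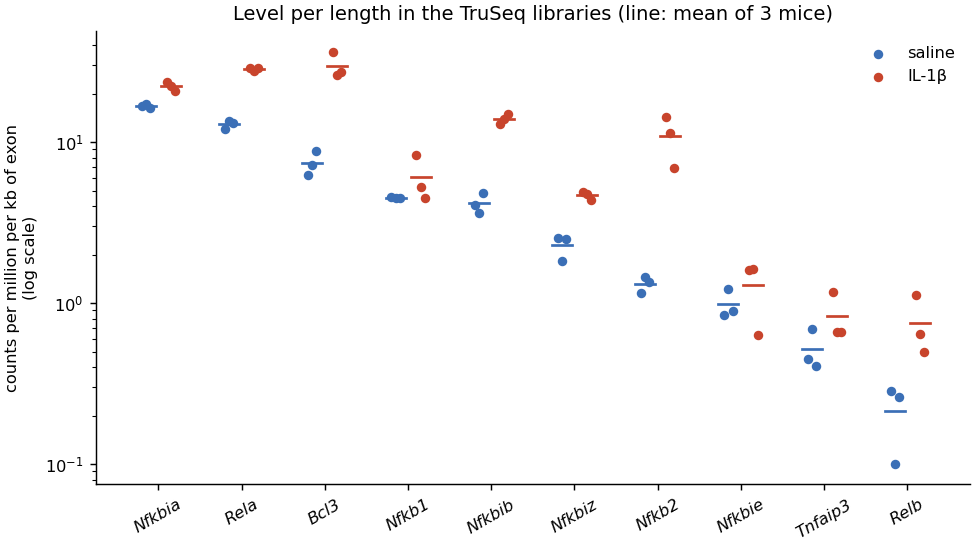
CPM per kb of exon for each gene in the TruSeq libraries, on a log axis, in the order of the saline means; blue points are saline mice, red points IL-1β mice, and lines the mean of 3 mice. Nfkbia leads after saline (16.8) and Bcl3 after IL-1β (29.8).

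A call in one kit and none in another does not show that the responses differ, so limma-voom was run with a term for the kit by treatment interaction. No member was called in any of the 3 pairs of kits, and the share of all genes called was 0% in each of them. Pico with TruSeq had 17207 genes tested, V4 with TruSeq 17147 and Pico with V4 16395, of which 945 (5.49%), 1090 (6.36%) and 900 (5.49%) had an unadjusted p under 0.05. Of the 10 genes only Nfkb1 between Pico and V4 passed that unadjusted limit. Its responses were 0.93 and -0.54, a difference of 1.47 with a 95% interval from 0.36 to 2.58 (limma-voom, adjusted p = 0.740). The response of Nfkb1 in V4 minus that in TruSeq was -0.91 (-1.93 to 0.10), and in Pico minus TruSeq 0.56 (-0.23 to 1.34). For Nfkb2 the response in Pico minus TruSeq was 0.97 (-0.55 to 2.50), and in V4 minus TruSeq 0.98 (-0.44 to 2.41). The intervals were narrowest for Rela, from -0.32 to 0.37 for Pico minus TruSeq and from -0.42 to 0.32 for V4 minus TruSeq. That of Tnfaip3 for V4 minus TruSeq ran from -3.74 to 2.30, an interval that holds large differences in either direction. With the mouse as a block no member was called either, against 0%, 0.0583% and 0% of all genes for the 3 pairs, and edgeR and DESeq2 called none of the 10.

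RNA of the same 3 IL-1β mice was in every kit, so the order of the mice could be compared between kits. Nfkb2, Relb and Nfkbia had the order ILB_9579, ILB_9582, ILB_9583 from high to low in all 3 kits, against 9.15% of 8960 genes with any one order in all kits. Mouse ILB_9579 was the highest in all 3 kits for 5 of the 10 genes (Nfkb2, Relb, Nfkbia, Nfkb1 and Bcl3), against 7.67% of those 8960 genes. For Nfkb2 the CPM of mouse ILB_9579 was 47.2 in TruSeq and that of mouse ILB_9583 was 22.6, and for Rela the same mice had 78.5 and 78.4. Among the saline mice 1 gene, Tnfaip3, had the same order in all kits, against 8.92% of those 8960 genes. The kits share the RNA of a mouse, so a shared order adds no mice. For Relb the order in Pico rests on 16, 14 and 12 counts, and that of Tnfaip3 in saline mice in V4 on 24, 33 and 0. The part of counting noise in these orders was not tested.

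**Figure D4:**
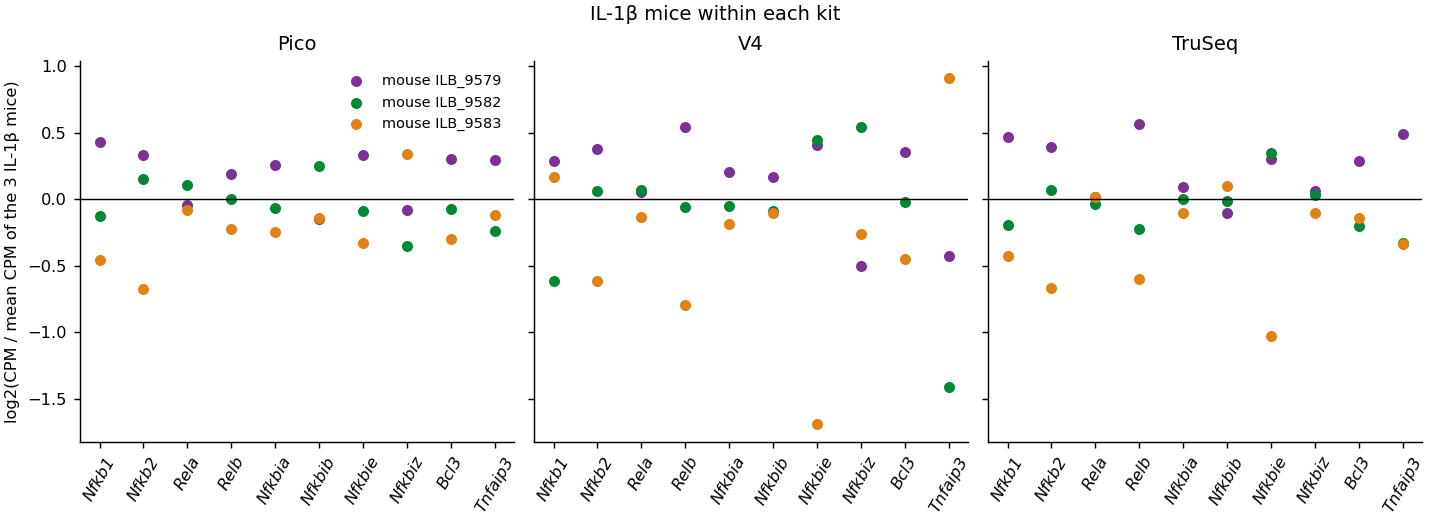
CPM of each IL-1β mouse relative to the mean of the 3 IL-1β mice of the kit, on a log2 scale, for each gene in Pico, V4 and TruSeq. Mouse ILB_9579 (purple) is the highest in all 3 kits for Nfkb1, Nfkb2, Relb, Nfkbia and Bcl3, and the 3 mice lie close together for Rela.

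The kits also gave different levels for the same RNA. On the log2(CPM + 0.5) scale, V4 minus TruSeq was 1.84 ± 0.20 (SD, n = 6 mice) for Nfkbib, 1.81 ± 0.20 for Bcl3, 1.53 ± 0.24 for Nfkbia and 0.83 ± 0.12 for Rela. It was -2.14 ± 0.64 for Nfkb1, -1.95 ± 1.13 for Tnfaip3 and -1.71 ± 0.40 for Nfkbiz, and between 0.05 and 0.75 for the remaining genes. The median over 8960 genes was -0.44, with the 10th percentile at -2.16 and the 90th at 1.05. The genes low in V4 were the 3 with the most exon bases (4794 for Nfkb1, 5018 for Nfkbiz and 7226 for Tnfaip3), and the 3 highest had 1577 to 2485. Other members did not follow that order. Nfkbie, with 2422 exon bases, was at 0.05 ± 0.62, and Relb, with 3892, at 0.75 ± 0.55. A relation to exon length over all genes was not tested. In Pico minus TruSeq the values lay between -0.17 for Nfkbia and 0.82 for Bcl3, against a median of 0.01. The tables were normalized separately, so these are descriptions with no test. The 3 genes low in V4 had at most 143 counts there in any library, and the median coefficient of variation of the 10 genes among mice of a treatment was 31.5% in V4, 24.2% in Pico and 17.5% in TruSeq.

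**Figure D5:**
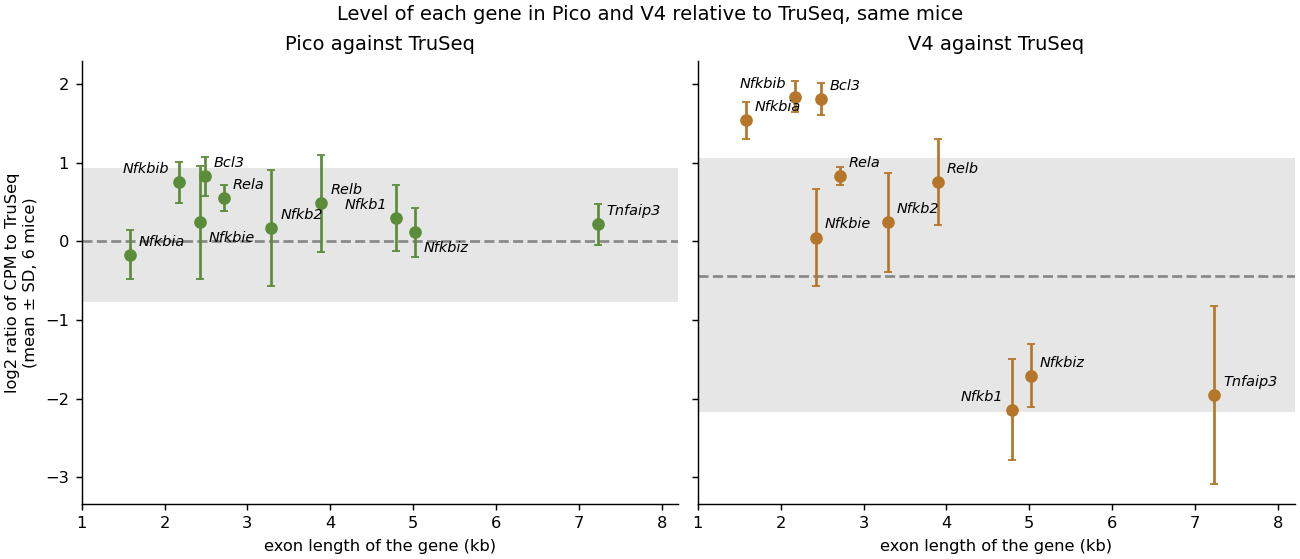
Log2 ratio of the level in Pico (left) and V4 (right) to that in TruSeq, from log2(CPM + 0.5), against the exon length of each gene in kb; points are means and bars SDs over 6 mice, the dashed line is the median of 8960 genes and the grey band their 10th to 90th percentile. In V4 Nfkbia, Nfkbib and Bcl3 lie above the band, and Nfkb1, Nfkbiz and Tnfaip3 near its lower edge.

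Other genes of the pathway were counted from a list. Of its 40 regulators (kinases, adaptors, ubiquitin enzymes, other subunits and nuclear regulators), 15 were higher and 3 lower of 40 measured in TruSeq, 11 and 1 of 39 in Pico, and 4 and 1 of 38 in V4. Over all genes 12.3% were higher and 21.8% lower in TruSeq, 6.78% and 10.8% in Pico, and 3.6% and 7.41% in V4. The median log2 fold change of the regulators was 0.22 in TruSeq, 0.29 in Pico and 0.22 in V4, against -0.17, -0.12 and -0.22 over all genes. In all 3 kits 4 regulators rose and 0 fell, against 3.05% higher and 5.35% lower of the genes listed in every table. The 4 were Ikbke, Tnip2, Tnip1 and Ikbkg. Ikbke, an IκB kinase related kinase, had 3218, 3050 and 2451 counts after IL-1β and 289, 432 and 319 after saline in TruSeq. Its log2 fold change was 3.12 ± 0.16 in TruSeq, 3.09 ± 0.19 in Pico and 3.51 ± 0.27 in V4, with limma-voom adjusted p values of 2.44e-06, 1.50e-08 and 2.72e-05. Tnip1 and Tnip2, which encode binding partners of the Tnfaip3 product, rose by 1.38 and 1.56 in TruSeq, 1.79 and 1.57 in Pico and 2.88 and 1.61 in V4 on the log2 scale. Ikbkg, the regulatory subunit of the IκB kinase complex, rose by 0.64, 0.43 and 0.74 in TruSeq, Pico and V4. Its limma-voom adjusted p values were 0.0132, 0.0424 and 0.0471, the last 2 close to the cutoff of 0.05. The catalytic kinases Chuk and Ikbkb were called in neither Pico, V4 nor TruSeq. Of the 8 kinases in the list 4 were higher in TruSeq, 3 in Pico and 2 in V4, and 0 were lower.

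Of 30 textbook targets of NF-κB, 17 were higher and 2 lower of 28 measured in TruSeq, 13 and 2 of 30 in Pico, and 14 and 2 of 29 in V4, against the same shares of all genes. Their median log2 fold change was 1.61 in TruSeq, 1.12 in Pico and 1.27 in V4, against -0.17, -0.12 and -0.22 over all genes. In all 3 kits 13 targets rose and 1 fell, against 3.05% higher and 5.35% lower of the genes listed in every table. The lists of regulators and targets were chosen with earlier results of these data known, so these counts and shares are descriptions. Lcn2, an iron-sequestering acute-phase protein, had 44980, 48283 and 55197 counts after IL-1β and 54, 65 and 91 after saline in TruSeq, a log2 fold change of 9.53 ± 0.18 (adjusted p = 4.60e-09 from limma-voom). Saa3, a serum amyloid A gene, had 40786 to 47194 counts after IL-1β and 67 to 76 after saline in TruSeq. Ccl20, a chemokine, had 0 counts in all 9 saline libraries and 60, 45 and 22 counts after IL-1β in TruSeq. The 1 target that fell in all 3 kits was Irf1, a transcription factor that also responds to interferon. It fell by 1.56 in TruSeq, 1.61 in Pico and 1.43 in V4 on the log2 scale. Its limma-voom adjusted p in V4 was 0.0467, close to the cutoff of 0.05.

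The genes whose pattern over the 18 libraries was closest to that of a member were found among 8953 others, by the root mean square difference of log2(CPM + 0.5) after centring each kit. For Rela they were Trim8 (0.13) and Gnl2 (0.13), for Nfkbib Apex1 (0.14) and Pim3 (0.18), for Bcl3 H3f3b (0.20) and Raph1 (0.22), and for Nfkb2 Arid5a (0.39) and Tacc2 (0.41). Nfkbia was closest to Cox19 (0.11) and Gm9892 (0.14), Nfkbiz to Max (0.22) and Plxna2 (0.23), and Nfkb1 to Gm5446 (0.30) and Isg20l2 (0.31). Relb was closest to Nfil3 (0.41) and Gar1 (0.42), Nfkbie to Xaf1 (0.36) and Chmp2b (0.38), and Tnfaip3 to Sav1 (0.29) and Ppp2cb (0.40). The points come from the same 6 mice in all kits, so likeness of pattern is a description.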

How the data were processed

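RNA-Seq libraries of 6 mouse livers, each prepared with 3 kits, were used, with samples grouped by kit and treatment from the labels. The deposited values are whole-number counts of reads per gene, made by the authors with GSNAP on mm9 and the PORT pipeline, which evens out depth among the libraries of a kit by resampling reads and keeps reads that follow annotated junctions. V4 counts hold both strands, those of the other kits only the sense strand, and each table was normalized alone. The Pico preparation was repeated by the authors, and the paper also describes a further TruSeq run of the same samples. The labels do not state which run the Pico or the TruSeq table holds. The paper credits its TruSeq libraries to an earlier study, with another sequencer model than for Pico and V4. Other per-sample columns numbered 0.

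Counts were fitted per kit with limma-voom (limma 3.58.1, R 4.3.3) with library totals as depth, on genes with at least 1 count, with Benjamini-Hochberg adjustment over the whole table and a call at 0.05. Differences between kits were fitted as an interaction on the 12 libraries of a pair. The RNA of a mouse was split between kits, so the mouse number pairs libraries across kits, and deviations of the same mouse correlated at 0.0718 to 0.225 for Pico with V4, 0.157 to 0.439 for V4 with TruSeq and 0.191 to 0.437 for Pico with TruSeq. Alternatives were edgeR 4.0.16, DESeq2 1.42.0, TMM factors, a minimum of 10 counts in 3 libraries, thinning to 4024632 counts (5 draws), 1 fit of all 18 libraries, cutoffs of 0.1 and 0.01, the mouse as a block, leaving out each mouse, the longest transcript as length and TMM-scaled totals. The fits were also run on simulated counts in which only a small set of genes changed, with random sign. That setting lacks the uneven split of calls in these data, so it does not test the scaling by library totals. Summaries used Python 3.11.15, numpy 2.4.6, pandas 2.3.3 and matplotlib 3.10.9. Members, lists and tests were chosen with earlier results of these data known. All 10 members are described, and of the regulators and targets those called the same way in all 3 kits were named, at most 4 and 3 in each direction by the TruSeq fold change. Outside that rule Chuk and Ikbkb were named as the catalytic kinases, and Pdlim2 because its calls went in opposite directions between kits. The 2 closest genes to each member were taken from those whose mean count reached 20 in each kit. Positions are those of the mm9 annotation, and a promoter is given in GRCm38.p6 with no conversion.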

Additional observations from a re-analysis of the deposited data

How the results depend on the processing

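IL-1β raised 7 members in TruSeq, 6 in Pico and 4 in V4, and 9, 6 and 6 by edgeR and by DESeq2. Leaving out 1 mouse at a time gave 6 to 7, 4 to 5 and 4 to 4. Nfkb2, Rela, Nfkbib and Bcl3 were called in all 12 alternatives in each kit. Relb and Nfkbiz in V4 were also called with TMM factors, by edgeR, by DESeq2, with the count filter and in 1 fit of all 18 libraries. Relb in TruSeq was not called after thinning (adjusted p = 0.0899 from limma-voom) or in that fit (0.0714), where Nfkb1 in Pico was lost too (0.0646). Directions turned for values that no test called: Tnfaip3 in V4 was 0.15 with TMM factors and -2.03 to 1.02 without 1 mouse, Nfkbie in TruSeq was -0.0409 after thinning, and Nfkbia in Pico was -0.0887 to 0.268 without 1 mouse. The difference for Rela between Pico and TruSeq was -0.0266 with TMM factors, -0.0259 by edgeR, and -0.0671 to 0.153 without 1 mouse. That between V4 and TruSeq was 0.0038 by DESeq2 and -0.118 to 0.0265 without 1 mouse. The level of Bcl3 after IL-1β in TruSeq was 40.0 CPM per kb with the length of the longest transcript and 31.5 with TMM-scaled totals, against 29.8. With the mouse as a replicate block, 0 members were called for a difference between kits, and the block changed no call on them. The cause of these changes was not tested. Relb, Nfkbie and Tnfaip3 had at most 120 counts in any library and Nfkb1 at most 112 in V4, and the part of depth in their values was not tested.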
